A study of Mus musculus with 6 samples.

Results

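The 10 genes described here belong to the liver X receptor (LXR) pathway of cholesterol efflux, out of 55573 genes counted by RNA-Seq in sorted mouse retinal cells. They are the LXR genes *Nr1h2* and *Nr1h3*, the transporter genes *Abca1* and *Abcg1*, the lipoprotein genes *Apoe*, *Apoc1* and *Pltp*, and the genes *Mylip*, *Srebf1* and *Lpcat3*. They were chosen by name as receptors and known targets of LXR, with the difference between *Ezh2* and *GFP* already seen in these libraries. Their differences between the groups are therefore given as descriptions, and no P value is attached to them. All 10 passed the filter on low counts, and the lowest count of any of them in any library was 279.

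All mice were C57BL/6J adults aged 6 to 10 weeks, males and females, that received adeno-associated virus AAV2 in the vitreous 2 weeks before optic nerve crush (ONC). The control group (AAV2-*GFP*) had 3 libraries and the *Ezh2* overexpression group (AAV2-*Ezh2*) had 3 libraries. Both groups had the same injury, and retinal cells were collected 3 days after it. Per the study's methods, live cells were sorted on CD90.2, the product of *Thy1*, which is found on retinal ganglion cells (RGCs) and also on T cells. *Ezh2* encodes the enzyme of the Polycomb complex PRC2 that methylates histone H3 on lysine 27. AAV2 reaches other retinal cells besides RGCs, the sort does not select transduced cells, and no uninjured group was part of this comparison. Nothing in the labels ties the replicates to separate animals, so P values measure the spread between these libraries, which may be technical.

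LXRs are nuclear receptors that bind oxysterols, the oxidized forms of cholesterol that build up when a cell holds too much of it. Together with a retinoid X receptor (RXR) they bind repeated half-sites in DNA and turn on genes that load cholesterol onto lipoprotein particles. In the nervous system these particles carry apolipoprotein E and are made mostly by glia. Macrophages and microglia that engulf myelin or dead cells use the same genes to export the cholesterol they take in. The SREBP-2 pathway works in the opposite direction and turns on cholesterol synthesis and uptake when sterol is low.

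Library totals ranged from 30569933 to 35971192 counts, and a count of 0 allowed a level of up to 0.0981 CPM in the shallowest library, where CPM is the count scaled by the depth of its library. Such limits cover counting error only. The main comparison used 5 libraries, because the study left out 1 *Ezh2* library. Its identity was inferred as Ezh2 replicate 3 from the columns of the study's heatmaps. That library correlated with its closest neighbor at 0.972 across genes, while each other library reached at least 0.985. Its lowest correlation was 0.958, as was that of GFP replicate 1. Values for the 10 genes are given with and without Ezh2 replicate 3. Genes counted as called where edgeR's quasi-likelihood test gave an adjusted P value under 0.05 and the fold change was above 1.5. *Ezh2* itself was at 28.8, 34.6 and 33.0 CPM in the GFP libraries and at 78.0, 65.3 and 104.8 CPM in the Ezh2 libraries.

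The labels call the cells RGCs, but RGC markers were low beside those of Müller glia. The 13 RGC markers summed to 147 to 185 CPM over the libraries, and the 10 Müller glia markers to 14709 to 23602 CPM. *Thy1* and *Rbpms*, the most abundant of the RGC list, were at 87.2 to 114 CPM and 16.4 to 20.8 CPM. *Pou4f2*, a transcription factor that defines RGCs, was added by name and was at no more than 0.0932 CPM in any library. By contrast *Glul*, the glutamine synthetase of Müller glia, lay between 5446 and 9900 CPM, and *Dkk3* between 2726 and 4101 CPM. The microglial genes *Csf1r* and *C1qa* were at 423 to 615 CPM. The levels below are therefore those of a mixed sorted population. In such bulk samples, fewer cells of a type and less RNA per cell cannot be told apart.

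Genes of cholesterol export had the largest differences among the 10. *Abca1*, *Abcg1*, *Apoc1* and *Pltp* were at 2.00 to 2.17 times their mean GFP level in Ezh2 replicates 1 and 2, and *Apoe* was at 1.63 times its GFP level. In the 5 libraries *Mylip* and *Nr1h3* differed less, and *Nr1h2*, *Lpcat3* and *Srebf1* least, whereas with all 6 *Nr1h2* was close to *Mylip* and *Nr1h3*.

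**Figure D1:**
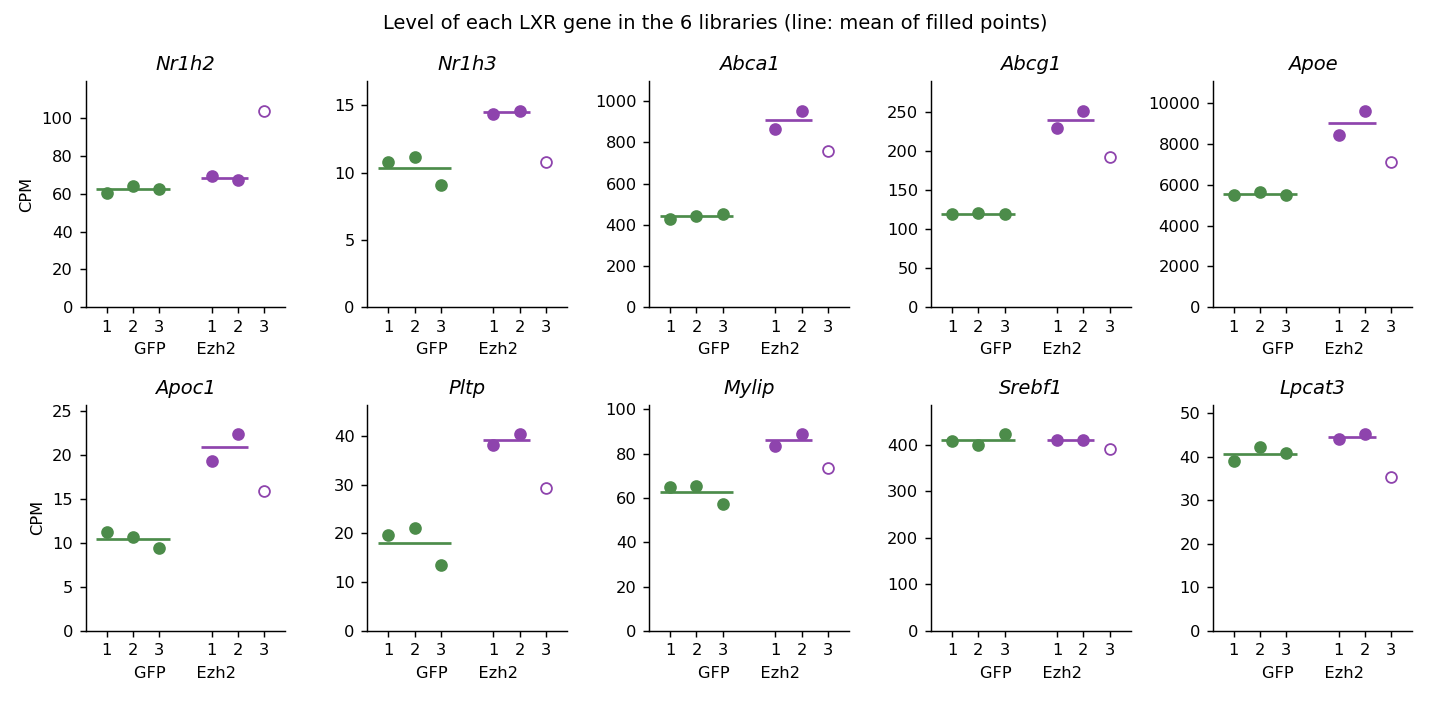
Level of each of the 10 LXR genes in CPM (y axis, from 0) in the 3 GFP libraries (green) and the 3 Ezh2 libraries (purple), numbered by replicate on the x axis; lines are the means of the filled points and the open point is Ezh2 replicate 3. *Abca1*, *Abcg1*, *Apoe*, *Apoc1*, *Pltp*, *Mylip* and *Nr1h2* lay higher in all 3 Ezh2 libraries than in any GFP library, whereas *Nr1h3*, *Lpcat3* and *Srebf1* overlapped.

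*Abca1* (ENSMUSG00000015243, chr4:53030787-53159895, minus strand, GRCm38) encodes the membrane transporter that passes cholesterol and phospholipid to lipid-poor apolipoproteins, the first step of particle formation. It was at 429, 442 and 452 CPM in the GFP libraries and at 865, 955 and 759 CPM in Ezh2 replicates 1, 2 and 3. The groups were well apart, with Ezh2 replicate 3 the lowest of its group. The log2 fold change was 1.06 ± 0.05 (SE, 5 libraries), and 1.00 ± 0.08 with all 6 libraries.

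*Abcg1* (ENSMUSG00000024030, chr17:31057675-31117988, plus strand) encodes the transporter that adds cholesterol to particles already formed. Its levels were 119, 120 and 120 CPM with *GFP* and 229, 252 and 192 CPM with *Ezh2*. The GFP libraries were nearly identical, at 119.9 ± 0.477 CPM (SD, n = 3), and Ezh2 replicates 1 and 2 were at 241 ± 16.3 CPM (SD, n = 2). On the log2 scale the difference was 1.02 ± 0.05, or 0.94 ± 0.08 with all 6 libraries. Both transporters moved in step: per kilobase of exon, *Abca1* was 2.53 to 2.65 times the level of *Abcg1* in the GFP libraries and 2.66 to 2.78 times in the Ezh2 libraries.

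A known LXR-binding repeat lies just upstream of the start of *Abca1*, and the same half-site letters stand upstream of an internal start of *Srebf1*, the gene of the 10 with the smallest difference. Both stretches are shown because the genes share this element and differ in how far apart the groups were. The *Srebf1* count adds up all starts of the gene, so it does not measure the output of this internal start. They run 5′ to 3′ in the direction of the gene up to 2 bases before the *Abca1* start and 117 bases before the *Srebf1* start, and capitals mark both half-sites.
Abca1 (chr4:53159897-53160012, GRCm38.p6, minus strand): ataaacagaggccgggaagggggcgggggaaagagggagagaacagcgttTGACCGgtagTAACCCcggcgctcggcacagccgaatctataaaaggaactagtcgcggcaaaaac
Srebf1 (chr11:60210588-60210703, GRCm38.p6, minus strand): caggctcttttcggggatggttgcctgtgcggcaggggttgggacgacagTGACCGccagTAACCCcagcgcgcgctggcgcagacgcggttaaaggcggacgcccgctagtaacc

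RefSeq promoters, each covering 250 bases before to 50 bases after a start site, were found for 8 of the 10 genes (13 promoters). The letters GGGTTA and CGGTCA, with 4 bases between them and at most 1 mismatch on either strand, occurred in 14 of 32851 promoters of that length (0.0426%). These letters were taken from the *Abca1* element itself, so its presence there is no finding. In *Abca1* the match spanned bases 67 to 52 before the start, and in *Srebf1* bases 182 to 167. Of the other genes with a match, *Fasn*, which encodes fatty acid synthase, was the only one with every letter in place; its log2 fold change was -0.05 ± 0.05 (adjusted P = 0.562, edgeR), and 0.01 ± 0.07 for *Fasn* with all 6 libraries (adjusted P = 0.922). The other 4 tested genes with a match, each with 1 mismatch, had log2 fold changes from -0.27 to 0.08. The textbook repeat of 2 AGGTCA half-sites 4 bases apart, with at most 2 mismatches, stood in 3.02% of all promoters and in 0 of the 13. A match is a description of letters and not of binding, and sites outside these windows were not searched.

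*Apoe* (ENSMUSG00000002985, chr7:19696109-19699188, minus strand) encodes the main lipoprotein component of the brain and retina, which accepts the cholesterol that ABCA1 exports. It was the most abundant of the 10 by a wide margin, at 5471, 5637 and 5501 CPM with *GFP* and 8460, 9638 and 7102 CPM with *Ezh2*. It took 0.547% to 0.564% of all counts in the GFP libraries and 0.71% to 0.964% in the Ezh2 libraries. The log2 fold change was 0.72 ± 0.06, and 0.64 ± 0.10 with all 6 libraries.

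*Apoc1* (ENSMUSG00000040564, chr7:19689481-19692660, minus strand) encodes a small apolipoprotein of the same particles and lies 3.45 kb from *Apoe*. Its 342, 336 and 290 counts with *GFP* compared with 623, 783 and 572 counts with *Ezh2*, or 9.44 to 11.2 CPM against 15.9 to 22.4 CPM. The groups did not overlap, and the log2 fold change was 1.01 ± 0.11 (0.92 ± 0.14 with all 6 libraries).

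The neighborhood of *Apoe* was examined because *Apoc1* and 2 more apolipoprotein genes sit beside it. *Apoc4*, 14.6 kb from *Apoe*, had only 11, 10 and 7 counts with *GFP* and 41, 82 and 60 counts with *Ezh2*. It rose by a log2 fold change of 2.59 ± 0.45 (adjusted P = 7.15e-05, edgeR, 5 libraries; 2.57 and 0.00773 with all 6). *Apoc2*, the next gene, had at most 6 counts in any library and was not tested. On the flanks, *Tomm40*, which encodes a mitochondrial import pore and lies 2.13 kb from *Apoe*, had a log2 fold change of 0.11 ± 0.09 (adjusted P = 0.459), and of 0.29 with all 6 libraries (adjusted P = 0.275). *Nectin2* and *Clptm1*, farther out, had values of -0.05 ± 0.07 and 0.07 ± 0.05 (adjusted P = 0.696 and 0.389), or -0.16 and 0.07 with all 6 (adjusted P = 0.386 and 0.487). Within 50 kb of *Apoe*, the genes called were thus *Apoe*, *Apoc1* and *Apoc4*.

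*Pltp* (ENSMUSG00000017754, chr2:164839518-164857711, minus strand) encodes a phospholipid transfer protein that remodels lipoproteins. Its levels were 19.7, 21.1 and 13.6 CPM with *GFP* and 38.2, 40.4 and 29.3 CPM with *Ezh2*. GFP replicate 3 and Ezh2 replicate 3 were each the lowest of their group. The log2 fold change was 1.13 ± 0.18 (1.02 ± 0.18 with all 6), with the largest SE of the 10 in the 5-library fit. *Pltp* shares 495 exon bases with *Ctsa* on the opposite strand, and *Ctsa*, a lysosomal protease gene with 5821 to 6470 counts with *GFP* and 9482 to 11986 with *Ezh2*, rose by a log2 fold change of 0.71 ± 0.06 (adjusted P = 7.74e-10, edgeR; 0.65 and 0.0047 with all 6). Whether counting used the strand is not given in the sources used here, so the part of *Ctsa* reads in the *Pltp* count was not tested.

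The receptors differed less than the 5 export genes above. *Nr1h3* (LXRα; ENSMUSG00000002108, chr2:91184061-91202834, minus strand), the form of macrophages, liver and fat, was at 10.8, 11.2 and 9.08 CPM with *GFP* and 14.4, 14.6 and 10.8 CPM with *Ezh2*. Ezh2 replicates 1 and 2 lay above every GFP library, whereas Ezh2 replicate 3 lay among them. The log2 fold change was 0.50 ± 0.12, and 0.39 ± 0.15 with all 6 libraries.

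*Nr1h2* (LXRβ; ENSMUSG00000060601, chr7:44549616-44553951, minus strand), the form present in most tissues, behaved otherwise. It was at 60.7, 64.0 and 62.7 CPM with *GFP* and at 69.3, 67.6 and 104 CPM with *Ezh2*. Ezh2 replicate 3 alone carried most of the difference, since the log2 fold change was 0.14 ± 0.06 without it and 0.41 ± 0.19 with it. Per kilobase, *Nr1h2* exceeded *Nr1h3* by 4.23 to 5.18 times in the GFP libraries, by 3.61 and 3.47 times in Ezh2 replicates 1 and 2 and by 7.24 times in Ezh2 replicate 3.

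*Mylip* (ENSMUSG00000038175, chr13:45389742-45412022, plus strand) encodes IDOL, a ubiquitin ligase that sends lipoprotein receptors to degradation. It was at 64.8, 65.3 and 57.3 CPM with *GFP* and 83.3, 88.8 and 73.7 CPM with *Ezh2*. The groups did not overlap, although the log2 fold change of 0.47 ± 0.07 (0.43 ± 0.09 with all 6) stayed under the 1.5-fold limit.

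*Srebf1* (ENSMUSG00000020538, chr11:60199089-60222581, minus strand) encodes SREBP-1, a transcription factor of fatty acid synthesis, of which LXR is known to raise the 1c form. It was at 409, 400 and 423 CPM with *GFP* and 410, 412 and 392 CPM with *Ezh2*, with full overlap and a log2 fold change of 0.01 ± 0.05 (0.02 ± 0.06 with all 6). The gene count adds up transcripts from its different starts, so the 1c form was not measured alone.

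*Lpcat3* (ENSMUSG00000004270, chr6:124663027-124704418, plus strand) encodes an enzyme that places polyunsaturated fatty acids into membrane phospholipids. Its levels were 38.9, 42.3 and 40.8 CPM with *GFP* and 44.1, 45.2 and 35.3 CPM with *Ezh2*. Ezh2 replicate 3 lay below every GFP library and the other Ezh2 libraries above them. The log2 fold change was 0.14 ± 0.07, or 0.07 ± 0.10 with all 6. *Lpcat3* shares 334 exon bases with *Emg1*, and *Srebf1* shares 109 with *Rai1*, both on opposite strands, with log2 fold changes of 0.20 ± 0.08 and 0.06 ± 0.06 for *Emg1* and *Rai1* (0.26 and 0.03 with all 6).

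**Figure D2:**
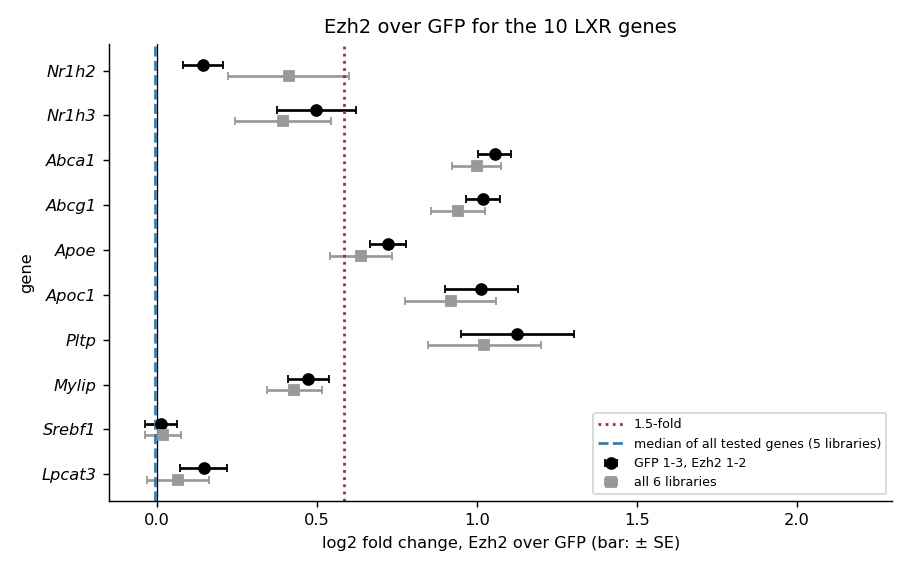
Log2 fold change of Ezh2 over GFP (x axis) for the 10 LXR genes (y axis), with bars of 1 SE, in the 5-library fit (black circles) and with all 6 libraries (gray squares); the red dotted line is 1.5-fold and the blue dashed line is the median of all tested genes. *Abca1*, *Abcg1*, *Apoe*, *Apoc1* and *Pltp* lay beyond the red line in both fits, and *Srebf1* lay at 0.01.

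Of the 10 genes, 5 were called higher and none lower with 5 libraries, beside 2.52% called higher and 1.28% called lower among the 20241 genes tested. The same 5 genes were called with all 6 libraries, beside 1.62% higher and 0.902% lower of 19732 tested genes. An adjusted P value under the threshold, with no limit on fold change, was reached in the higher direction by 7 of the 10 with 5 libraries (10.1% of all genes) and by 6 with all 6 (3.08%). With 5 libraries, 9 of the 10 lay higher in the Ezh2 group with no overlap (21.5% of all genes), and with all 6 libraries 7 did (14.9%). The median log2 fold change of the 10 was 0.61 with 5 libraries and 0.53 with all 6, beside medians of -0.01 and 0.01 over all tested genes. Since the genes were chosen with this difference in view, these counts describe the choice.

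Calls of *Abca1* and *Abcg1* were made under each of the 19 alternative fits. *Apoe*, *Apoc1* and *Pltp* kept their direction in all of them. *Pltp* lost its call when either Ezh2 replicate 1 or Ezh2 replicate 2 was left out of the 5 libraries (log2 fold changes of 1.18 and 1.07). From the 6 libraries, *Apoe* and *Apoc1* lost it when any GFP library was left out (0.63 to 0.65 and 0.85 to 0.97). *Apoe* also lost it without Ezh2 replicate 2 (0.53), and *Pltp* without GFP replicate 1 (1.09), GFP replicate 3 (0.85) or Ezh2 replicate 1 (1.00).

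To compare abundance between genes, CPM was divided by the length of merged exons. In the GFP group *Apoe* stood at 2590 ± 41.2 CPM per kilobase (SD, n = 3), 35.5 times the next gene, *Srebf1* (72.9 ± 2.11). *Abca1* followed at 42.6 ± 1.11, then *Mylip* at 19.3 ± 1.39 and *Nr1h2* at 18.6 ± 0.494, which did not differ beyond their spread. *Abcg1*, *Apoc1* and *Lpcat3* were at 16.4 ± 0.0654, 14.0 ± 1.20 and 12.5 ± 0.522 CPM per kilobase, and *Pltp* and *Nr1h3* were lowest, at 7.08 ± 1.57 and 4.11 ± 0.443.

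In Ezh2 replicates 1 and 2, *Abca1* (87.8 ± 6.13 CPM per kilobase; SD, n = 2) stood above *Srebf1* (72.9 ± 0.208). *Abcg1* (33.0 ± 2.24) moved from rank 6 to rank 4. *Apoc1* (28.0 ± 2.86) and *Mylip* (26.6 ± 1.20) did not differ beyond their spread, and *Nr1h2* (20.4 ± 0.355), *Pltp* (15.3 ± 0.606), *Lpcat3* (13.7 ± 0.236) and *Nr1h3* (5.76 ± 0.0667) followed. With all 3 Ezh2 libraries the order was the same, but *Mylip* and *Nr1h2*, and *Pltp* and *Lpcat3*, no longer differed beyond their spread.

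**Figure D3:**
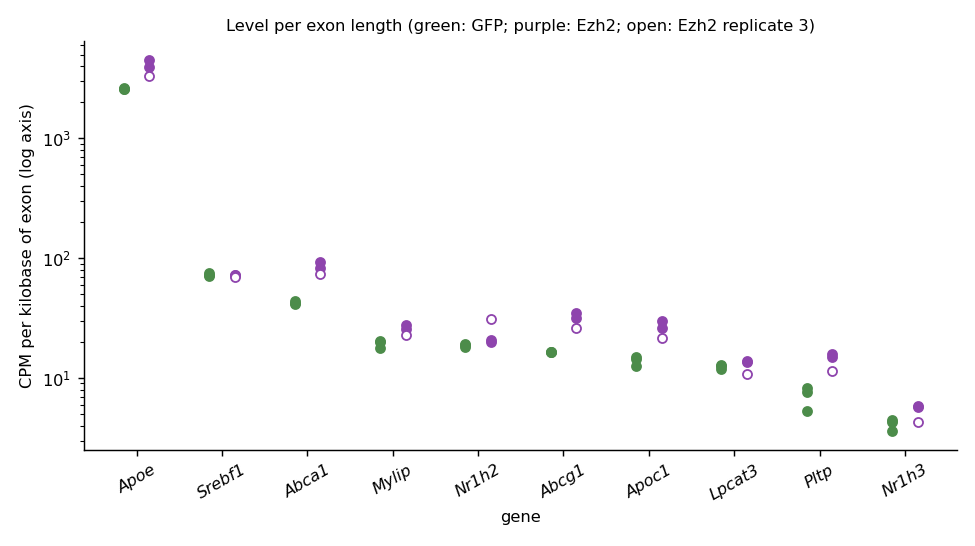
CPM per kilobase of exon (y axis, log scale) for the 10 LXR genes (x axis, ordered by the GFP mean) in each library; green points are GFP, filled purple points are Ezh2 replicates 1 and 2, and the open point is Ezh2 replicate 3. *Apoe* lay far above the other genes, and *Abca1* passed *Srebf1* in the Ezh2 group.

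The genes most alike to *Abca1* over the 6 libraries were sought among those with at least 100 counts on average, by the correlation of log2 CPM. They were *Tnfrsf10b*, a death receptor gene (r = 0.9999), *Hpse*, which encodes heparanase (r = 0.998), and *Abcg1* (r = 0.998). *Tnfrsf10b* was at 4.61 to 4.72 CPM with *GFP* and 6.12 to 6.82 CPM with *Ezh2*, a smaller relative difference than that of *Abca1*. *Hpse* was at 13.9 to 15.2 CPM with *GFP* and 36.8 to 53.0 CPM with *Ezh2*. The correlation does not take the size of the difference into account. For *Nr1h3* they included *Serinc3* (r = 0.999) and *Aurka* (r = 0.995). Among the 10, *Mylip* was closest to *Nr1h3* (r = 0.945), and *Srebf1* had the lowest correlation with *Abca1* (r = -0.16). The points share libraries and fall into 2 groups, so these values describe pattern only.

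Other genes of the pathway were taken from textbook lists. Among 18 other LXR targets, 13 were tested, 4 rose (2.52% of all genes were called higher) and none fell. Besides *Apoc4*, these were *Smpdl3a*, *Tgm2* and *Cd5l*. *Smpdl3a*, a phosphodiesterase gene induced by sterols in macrophages, was at 776 to 855 counts with *GFP* and 1295 to 1951 counts with *Ezh2*, with a log2 fold change of 0.86 ± 0.12 (adjusted P = 0.000473; 0.0144 with all 6). *Tgm2*, which encodes a transglutaminase, had 3411 to 3606 counts with *GFP* and 4577 to 6313 with *Ezh2* (0.65 ± 0.05, adjusted P = 1.23e-10). With all 6 libraries its value of 0.54 was under the fold limit (adjusted P = 0.0215).

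*Cd5l*, a secreted protein of macrophages, had 0, 4 and 0 counts with *GFP* and 31, 85 and 31 counts with *Ezh2*. It passed the filter on low counts only through the Ezh2 libraries, so its call in both fits is a description and not a test. The lipogenic targets had lower or nearly equal values. *Scd2*, an abundant fatty acid desaturase gene, had a log2 fold change of -0.18 ± 0.05 (adjusted P = 0.0109; 0.098 with all 6) and *Scd1* one of -0.17 ± 0.15 (adjusted P = 0.511; -0.27 and 0.377 with all 6). The median of the 13 was 0.01.

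Of 17 genes of cholesterol transport, 15 were tested and 1 rose, beside 2.52% of all tested genes called higher. That gene was *Lipa*, the lysosomal acid lipase that frees cholesterol from engulfed particles, with 1359 to 1547 counts with *GFP* and 2743 to 3506 counts with *Ezh2*. Its log2 fold change was 1.02 ± 0.07 (adjusted P = 3e-11; 0.000728 with all 6). *Npc1* and *Npc2*, which pass cholesterol out of the lysosome, had smaller values of 0.21 ± 0.05 and 0.36 ± 0.05 (adjusted P = 0.00405 and 8.15e-06), below the fold limit. With all 6 libraries the adjusted P value of *Npc1* was 0.293 and that of *Npc2* 0.0232. The median of the list was 0.08.

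Of 9 genes of cholesterol esters and oxysterols, 1 was called higher, beside 2.52% of all tested genes. *Plin2*, the coat protein of lipid droplets, had 1425 to 1637 counts with *GFP* and 2536 to 3326 counts with *Ezh2* (log2 fold change 0.80 ± 0.08, adjusted P = 2.9e-07; 0.00299 with all 6). *Cyp46a1*, which makes the main oxysterol of neurons, had a value of -0.10 ± 0.18 (adjusted P = 0.776; -0.16 and 0.629 with all 6). The list's median was 0.15 with 5 libraries and -0.06 with all 6.

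None of the 9 receptor partners and none of the 6 tested lipoprotein receptors was called, with median log2 fold changes of -0.02 and -0.06 (0.15 and -0.17 with all 6 libraries, where none was called either). The RXR partners *Rxra*, *Rxrb* and *Rxrg* had values of 0.17 ± 0.05, 0.20 ± 0.07 and -0.34 ± 0.29 (adjusted P = 0.0266, 0.0565 and 0.479). With all 6 libraries these were 0.15 ± 0.06, 0.21 ± 0.08 and -0.62 ± 0.34 (adjusted P = 0.181, 0.159 and 0.286). *Lrp8* had a value of -0.22 ± 0.06 (adjusted P = 0.0119; 0.11 with all 6). *Vldlr* had one of 0.04 ± 0.10 (adjusted P = 0.859), which with all 6 was -0.13 ± 0.17 (adjusted P = 0.657). Both encode receptors of particles that carry apolipoprotein E, and IDOL acts on both.

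The 13 genes of sterol synthesis and SREBP control had log2 fold changes below 0 in every case with 5 libraries, from -0.35 to -0.02, with a median of -0.18. None was called, and 6 of the 13 had an adjusted P value under the threshold in the lower direction, beside 7.68% of all tested genes. *Srebf2*, the master regulator of the pathway, had a value of -0.17 ± 0.05 (adjusted P = 0.0183), and -0.13 ± 0.06 with all 6 libraries (adjusted P = 0.212). With all 6 libraries 3 of the 13 were above 0 and 1 had an adjusted P value under the threshold, beside 2.7% of all genes, and the median was -0.13.

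**Figure D4:**
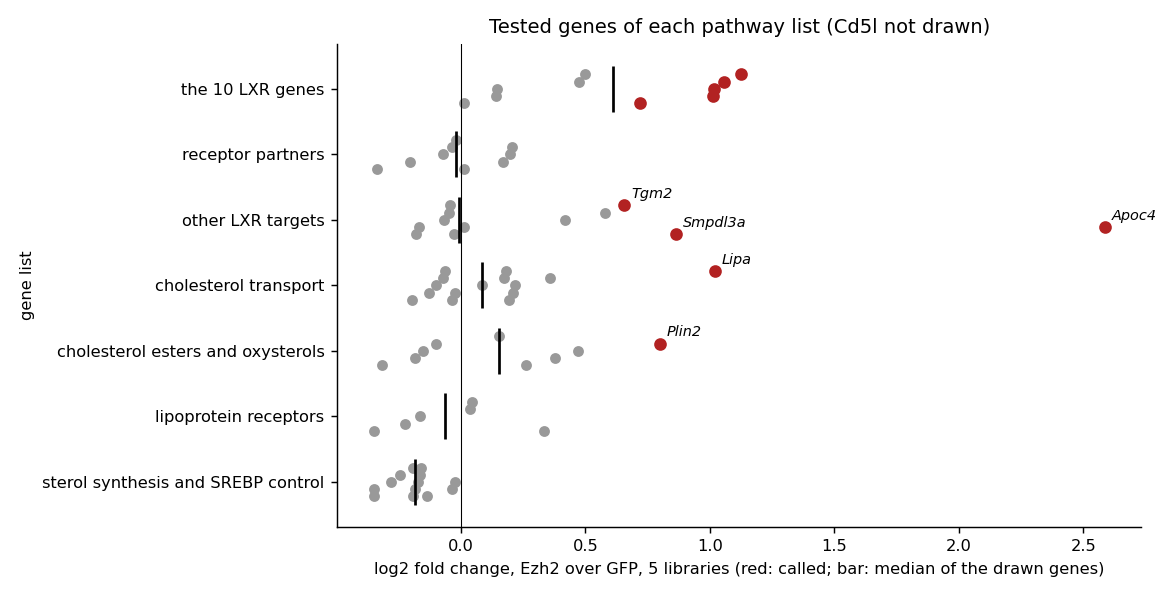
Log2 fold change of Ezh2 over GFP in the 5-library fit (x axis) for the 10 LXR genes and the tested genes of 6 pathway lists (y axis); red points were called, gray points were not, and black bars are medians of the drawn genes. *Cd5l* is not drawn because its GFP counts were 0, 4 and 0; sterol synthesis genes lay at or below -0.02.

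Over the 6 lists, 6 of 65 tested genes rose (2.52% of all genes were called higher) and none fell with 5 libraries. With all 6 libraries 5 rose, beside 1.62% of all genes called higher. Both counts include *Cd5l*, which the filter kept only through the Ezh2 libraries. *Apoc4*, *Cd5l*, *Smpdl3a*, *Lipa* and *Plin2* were the genes called in both fits.

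Some lists of cell type markers also differed between the groups, and not all in the same direction. Of 12 macrophage markers, 11 were tested, 7 rose and none fell, beside 2.52% called higher and 1.28% called lower of all tested genes. The summed level of the macrophage markers was 645 to 725 CPM in the GFP libraries and 1772 to 2614 CPM in the Ezh2 libraries. *Lyz2*, the lysozyme of myeloid cells, was at 329 to 379 CPM with *GFP* and at 1223 to 1868 CPM with *Ezh2* (log2 fold change 2.19, adjusted P = 0.00682, edgeR; 2.09 and 0.000774 with all 6), and the scavenger receptor gene *Stab1* at 55.4 to 64.4 and 207 to 242 CPM. *Cd163* was at no more than 0.389 CPM in any library, and *Lyve1* at no more than 1.14 CPM. The part of macrophages in the levels of the LXR genes was not tested.

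Microglial markers changed less as a list. Their summed level was 2413 to 2661 CPM with *GFP*, 3096 and 3350 CPM in Ezh2 replicates 1 and 2 and 2264 CPM in Ezh2 replicate 3. Of 14 tested, 2 rose (*Trem2* and *Fcrls*) and 1 fell (*Sall1*), beside 2.52% called higher and 1.28% called lower of all tested genes. *Trem2*, *Fcrls* and *Sall1* were named here after their values were seen, and *Trem2* was not called with all 6 libraries (adjusted P = 0.0583, edgeR). *Csf1r* was at 499 to 545 CPM with *GFP* and at 615, 613 and 447 CPM with *Ezh2*.

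Müller glia markers went the other way, at 22791 to 23602 CPM with *GFP* and 14709 to 18491 CPM with *Ezh2* (*Glul*, log2 fold change -0.49, adjusted P = 4.01e-08, below the fold limit; -0.57 and 0.00953 with all 6). None of 10 was called with 5 libraries, and 1 (*Abca8a*, named after its value was seen) fell with all 6, beside 0.902% of all tested genes. Astrocyte markers summed to 1613 to 1731 CPM with *GFP* and 1627 to 2020 CPM with *Ezh2*; *Slc1a2* had a value of -0.36 (-0.45 with all 6) and *Gfap*, which reactive Müller glia also express, rose by 1.01 (adjusted P = 1.38e-05; 0.97 and 0.000791 with all 6). Rod markers were at 393 to 466 CPM with *GFP*, at 699 and 748 CPM in Ezh2 replicates 1 and 2 and at 414 CPM in Ezh2 replicate 3.

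T cell markers summed to 402 to 428 CPM with *GFP*, 539 and 515 CPM in Ezh2 replicates 1 and 2 and 849 CPM in Ezh2 replicate 3, where *Nr1h2* was also highest. B cell markers, nearly all *Jchain*, were at 465 to 517 CPM with *GFP* and 290 to 509 CPM with *Ezh2*. Endothelial and mural markers were at 1296 to 1361 and 939 to 1193 CPM, with *Flt1* the most abundant. RGC markers summed to 147 to 150 CPM with *GFP* and 170 to 185 CPM with *Ezh2*. Calls with 5 libraries in these 4 lists and the rod list were all higher and included *Cd8a* of T cells, *Kcnj8* of mural cells, *Tubb3* and *Nefh* of RGCs, and *Rp1* and *Cnga1* of rods, named after their values were seen. With all 6 libraries the rod list went from 3 calls to 0, the endothelial and mural list from 1 to 0, and the RGC list from 2 to 3 with *Nefl*. Among all tested genes, 2.52% were called higher with 5 libraries and 1.62% with all 6. The B cell list had no call in either fit. The part of any of these lists in the differences of the LXR genes was not tested.

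**Figure D5:**
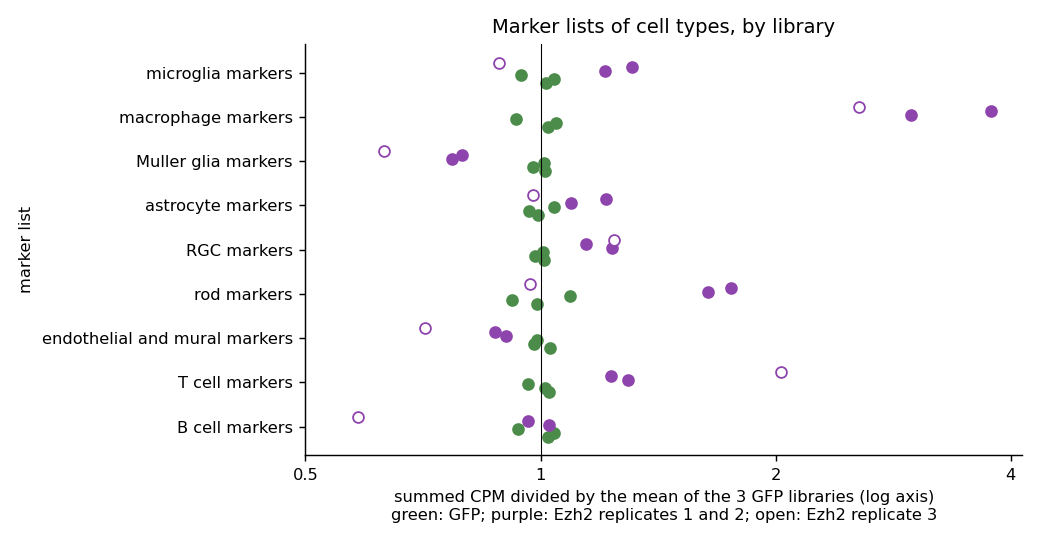
Summed CPM of each marker list in each library divided by the mean of the 3 GFP libraries (x axis, log scale), for 9 lists (y axis); green points are GFP, filled purple points are Ezh2 replicates 1 and 2, and the open point is Ezh2 replicate 3. Macrophage markers lay above every GFP library in all 3 Ezh2 libraries, and Müller glia markers below.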

How the data were processed

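RNA was prepared with the PicoPure kit and libraries with the TruSeq Stranded Total RNA kit, per the labels. The authors deposited one table of raw counts, with a row per Ensembl gene and a column per library. The submitters' processing notes name STAR 2.7.0d and build GRCm38; the counting program, annotation release and strand setting are not given in the sources used here. Columns were matched to samples by their labels, and 0 columns were left over. Of 55573 identifiers, 55480 matched GENCODE M21 (GRCm38), which gave symbols, coordinates and merged exon lengths.

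Genes that passed filterByExpr were fitted in edgeR 4.0.16 (TMM scaling, robust quasi-likelihood F test, two-sided, R 4.3.3), with group as the only term, on GFP replicates 1 to 3 and Ezh2 replicates 1 and 2. P values were adjusted by the Benjamini-Hochberg method over all tested genes. CPM used library totals, as mean ± SD; SE of log2 fold changes came from the F statistic. Log2 CPM for correlations had a prior count of 2. Library totals of 30569933 to 35971192 counts set the precision. The fit was tested on simulated counts.

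The 10 genes, the lists and the tests were chosen with earlier results of these data known. Genes named were the 10, called genes of each pathway list (at most 4 per direction), a fixed set of RXR, lipoprotein receptor and sterol genes, the 2 most abundant genes of each marker list, and the 3 genes most alike to *Abca1* and to *Nr1h3*. Some results of these lists are not reported here. Exon neighbors, genes near *Apoe* and the promoter repeat were added after the values were seen.

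Settings tried besides were all 6 libraries, leaving out each library, a replicate block, DESeq2 1.42.0, RLE size factors, library totals, no filter, a mean of at least 50 counts, an adjusted P value alone and, chosen after seeing the data, a fit without the robust option. Promoter sequences came from RefSeq (GRCm38.p6). Pictures were drawn with matplotlib 3.10.9.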

Additional observations from a re-analysis of the deposited data

How the results depend on the processing

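Of the 10 genes, 5 were called, and the alternatives other than leaving out a library gave 5 as well, apart from 7 by adjusted P value alone. Leaving out each library gave 4 to 5 from the 5 libraries and 2 to 4 from the 6, lowest without GFP replicate 1 or GFP replicate 3. The median log2 fold change of the 10 was 0.609; it was 0.533 with all 6 libraries, 0.524 to 0.678 over the fits with a library left out, and positive in every fit. The number of pathway genes called was 6, 5 with all 6 libraries, 2 to 7 with a library left out, and 27 by adjusted P value alone (16 higher and 11 lower). It was 4 with a mean of at least 50 counts, where *Apoc4* and *Cd5l* were not tested. By adjusted P value alone, 10.1% of all tested genes were higher and 7.68% lower. Calls over all genes numbered 770; they were 498 with all 6 libraries, 110 to 794 with a library left out, and 3605 by adjusted P value alone.

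Fits that leave out a library hold fewer samples. Calls over all genes numbered 624 to 794 with a library left out of the 5. They numbered 110 to 423 with a library left out of the 6, where Ezh2 replicate 3 was kept. The cause of these differences was not tested.

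Replicate numbers did not pair the libraries, since deviations of same-numbered libraries correlated at -0.00506, -0.0197 and -0.0102. A fit with a replicate block called 5 of the 10 genes from 5 and from 6 libraries, with medians of 0.563 and 0.529, and calls over all genes numbered 722 and 396. The depth of 30569933 counts or more left *Apoc2* and *Apoa1*, at a few counts, too low to test.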
